A study of Mus musculus with 75 samples.

Results

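Chains of touching H3K27ac regions are stretches that the deposited region table cuts into consecutive rows with no base pairs left between them. A chain was a run of at least 5 rows on chromosomes 1 to 19 in which each row started 0 or 1 bp from the stop of the row before, and its members were the rows shorter than 10000 bp. The rule used positions only and read no signal values. How the region boundaries were drawn is not known, so which rows touch may itself depend on the signal. The rule gave 24710 members of 126368 H3K27ac regions (19.6%), in 4598 chains. The same chains held 4018 rows of 10000 bp or more, which are not members but count towards the sum of a chain.

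H3K27ac, acetylation of histone H3 at lysine 27, marks active promoters and enhancers. Broad stretches that carry many acetylated pieces often hold several regulatory elements of a gene or a gene cluster, and the pieces can be used together or separately in different cell types. In nuclei of the mouse hypothalamus, ChIP-seq gave the level of the mark and ATAC-seq that of open chromatin. All mice were LepRcre/+; SUN1-sfGFP/+, which puts a GFP tag on the nuclear envelope of cells in which the leptin receptor gene drives Cre. Cre leaves a lasting mark, so a tagged nucleus shows that the driver was active at some time. Nuclei from pooled hypothalami were sorted as GFP-positive (labelled LepRb positive) or GFP-negative (all other hypothalamic nuclei). Mice were grown for at least 2 months, and the labels used here give neither the sex of a library nor the number of animals in its pool.

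There were 4 treatments. Fed mice ate freely for 36 h. Fast mice were fasted for 36 h with saline at 12, 24 and 34 h. Lep2 mice had the same fast with leptin, the hormone of fat tissue that lowers food intake, at 5 mg/kg at 34 h only. Lep24 mice had the fast with that leptin dose at 12, 24 and 34 h. Library names carry the code SSS in both Fed and Fast, and SSL in Lep2. The labels used here give no injection for Fed and none before 34 h for Lep2. Whether these mice also had saline is therefore not settled here. Each of the 8 combinations of treatment and sort had 2 libraries per assay, so that each sort had 8 H3K27ac libraries. The labels do not say whether the 2 libraries of a group came from separate pools of animals, and p-values then measure only the spread between these libraries, which may be technical. Values are the authors' normalized signal per region, with no known read depth. In sorted nuclei, fewer nuclei that carry the mark and less mark per nucleus cannot be told apart. Regions carry no gene names, so the sort could not be checked against marker genes, and regions are given by mm9 position.

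Of the 16 H3K27ac libraries, 6 stood apart, namely the replicate 1 libraries of either sort in Fed, Lep2 and Lep24. Their share of signal on mitochondrial rows was 0.0750% to 0.238%, against 0.0102% to 0.0384% in the other 10. Each sort had 3 of the 6, so their number was balanced over the sort but not over the treatments, since neither Fast library pair belonged to the set. The size of the departure was not balanced over the sort. Within the set the mitochondrial share was 0.187% to 0.238% in GFP-negative and 0.0750% to 0.148% in GFP-positive libraries. In the set, this departure and the sort difference cannot be told apart. The main results are given for all 16 libraries and again without these 6.

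The chains had a regular build. Of the 4598 chains, 2772 had exactly 5 rows, 308 had 10 or more, and the longest had 29. Their median span was 23825 bp, from 3664 to 368795 bp, and together they covered 155.9 Mb. Members had a median length of 1894 bp (quartiles 1051 and 4121 bp). An odd number of rows was found in 4052 chains (88.1%). Within a chain, signal per kb went up and down from row to row: 90.7% of 19532 interior rows were denser, or sparser, than both of their neighbours. Counted from the low-coordinate end of chains with an odd number of rows, rows at even places had a median of 18.6 signal units per kb and 4652 bp, and rows at odd places had 12.0 units per kb and 1596 bp. A typical chain therefore began and ended with a sparse, short piece and held dense, longer pieces between sparse ones. The sources used here do not say how the region boundaries were drawn, and the part of that cutting in this build was not tested. The contrast between even and odd places was smaller in the set of 6 libraries, at a log2 ratio of signal per kb of 0.48 to 0.69, than in the other 10, at 0.86 to 1.05. Within the set it was 0.48 to 0.54 in GFP-negative and 0.55 to 0.69 in GFP-positive libraries.

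The first comparison asked how single members differed between GFP-positive and GFP-negative nuclei. After regions in the lowest 10% of mean signal were left out (below 5.96 units), 22486 members were tested and 2224 were not. In GFP-positive nuclei 821 members were higher (3.65%) and 1217 lower (5.41%), by limma with Benjamini-Hochberg adjusted p under 0.05 over all regions. Over all 113725 regions tested, 3.26% were called higher and 5.97% lower, 9.22% in all, so the members' 9.06% was near the background. Higher members had a median log2 difference of 0.62, with 4.26% at 2-fold or more. Lower members had a median of -0.81, with 25.5% at 2-fold or more. Paired by treatment and replicate number, the libraries gave 8 differences, which all had 1 sign for 595 of the higher and 793 of the lower members. Since the set of 6 has 1 library a group, the 2 sets were fitted apart with terms for treatment and sort in place of group means, which leaves 5 residual degrees of freedom in the 10 libraries and 2 in the 6. All 16 libraries fitted that way (11 degrees of freedom) called 1183 members higher and 1540 lower. The 10 libraries called 3202 members higher and 3308 lower (28.95%), where 32.4% of all regions were called. The set of 6 alone called 375 and 269 (2.86%), where 4.1% of all regions were called. Leaving out 1 library in turn gave 309 to 1077 higher and 690 to 1555 lower members. Both counts moved by over 1.5 times without any of the 4 Fast libraries, Fed GFP-positive replicate 2 or Lep24 GFP-positive replicate 2, which gave the lowest of each. The higher count alone did so without Fed GFP-positive replicate 1, Lep2 GFP-positive replicate 2 or Lep24 GFP-negative replicate 2.

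The share of members called was larger at higher signal. Over 4 equal bins of signal made from all tested regions, 2.00% of members were called in the lowest bin and 15.6% in the highest. In that highest bin 7.61% of members were called higher, against 3.71% of the other regions, while the shares called lower were 8.01% and 7.79%. That bin is not matched in signal, since members reached 692 units and the other regions 266362. In the bins below it members were called less often than the other regions. From the lowest bin up, the shares there were 2.00%, 7.29% and 12.4% against 2.85%, 8.66% and 14.0%. Dense pieces at even places were called more often (11.2% of 7461) than sparse ones at odd places (8.01% of 11889), and pieces inside a chain more often (10.3%) than end pieces (6.28%). The directions differed by place. At even places 464 members were higher and 373 lower, and at odd places 269 and 683. Inside chains 723 were higher and 870 lower, and at the ends 98 and 347. The sparse pieces also had a lower median signal, 19.7 against 64.1 units. The part of signal in these shares was not tested, nor was that of the unequal contrast between even and odd places among libraries. The chains' own rows of 10000 bp or more were called in 14.0% of cases, rows in runs of 2 to 4 touching rows in 7.02%, and rows that touch nothing in 12.9%.

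At the edges of the rule the shares ran as follows. Members of chains of exactly 5 rows were called in 8.97% of 11061 cases, and rows shorter than 10000 bp in runs of exactly 4 rows in 6.68% of 3458. Chain rows up to 1000 bp under the limit of 10000 bp, which are members, were called in 16.8% of 579 cases, and those less than 1000 bp over it, which are not, in 15.6% of 512.

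Touching pieces that were both called nearly always had the same direction, and so did other neighbouring regions. Of 14796 touching pairs of tested members, both were called in 450, and 449 of these had the same direction. The counts were 425 of 427 for touching regions in runs of 2 to 4 rows and 330 of 336 for consecutive regions with a gap of up to 5000 bp. A neighbour of a higher member was itself higher in 20.6% of 1271 cases and lower in 0.0787%. Its median log2 difference was 0.36, and 91.2% lay above 0. A neighbour of a lower member was lower in 38.9% of 1637 cases, with a median of -0.53 and 92.4% below 0. Sharing also reached past the next piece: at 2 steps 17.6% and 32.6% of partners had the call of the first piece, at 3 steps 8.58% and 28.2%, and at 5 steps 10.5% and 25.9%. The gapped regions, also shorter than 10000 bp, gave 5.44% for higher and 32.7% for lower partners (13946 pairs). Set side by side, the shares of touching and gapped pairs lay further apart for higher calls than for lower ones. The base rates also differed. Higher pieces gave 1271 cases in the 14796 touching pairs and 551 in the 13946 gapped pairs, while lower pieces gave 1637 and 1924. The shares were not corrected for these rates, so they do not show that the 2 directions differ in sharing. These shares read both pieces in the same libraries, whose noise neighbours can share.

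Read by chain, 3301 chains had no called member, 844 had 1, and 453 had 2 or more. Of those 453, 150 had only higher calls, 289 only lower calls, and 14 had both. The most called members in a chain was 10. In the other 10 libraries, where more members were called, 249 of 1719 chains with 2 or more calls held both directions, yet 2077 of 2146 touching pairs that were both called (96.8%) had the same one. Pieces of opposite call were therefore rare as direct neighbours in both readings.

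To keep library noise out of the comparison, the sort difference of a piece in a pair of libraries was set against that of its neighbour in each of the 7 other library pairs. The likeness is Spearman's rho across pairs of pieces, averaged over library pairs. It is a description without a p-value, since the pieces of a chain are not independent and share their libraries. The same member read in different library pairs gave 0.293 ± 0.079 (SD, n = 8 library pairs), which serves as the upper reference. Touching members gave 0.213 ± 0.068, which is 0.728 of that value. Likeness was lower at each greater distance: 0.159 ± 0.054 at 2 steps, 0.145 ± 0.047 at 3, 0.132 ± 0.044 at 5 and 0.120 ± 0.040 at 10, the last over 477 pairs with a median of 66520 bp between centres. Likeness was thus largest for the next piece and still above 0 for pieces 10 steps along the same chain. In chains of 10 or more rows touching members gave 0.219 ± 0.070, and touching regions in runs of 2 to 4 rows 0.177 ± 0.071.

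**Figure D1:**
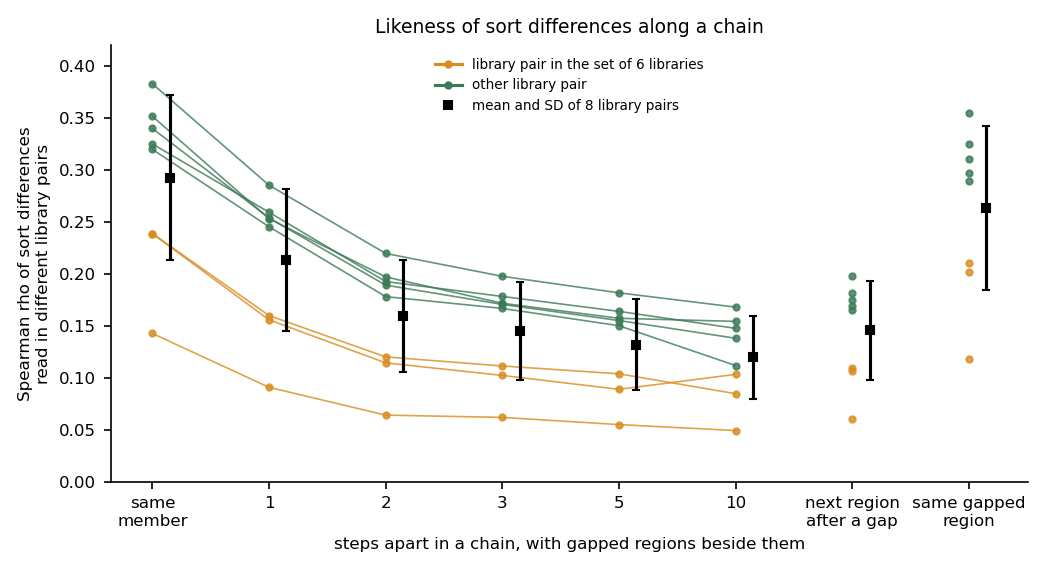
Likeness of the H3K27ac sort difference (Spearman's rho, vertical axis) between pieces 1 to 10 steps apart in a chain, for the same member, for the next region after a gap, and for the same gapped region. Thin lines and dots are the 8 library pairs, orange for the 3 pairs in the set of 6 libraries, and black squares are the mean ± SD. The mean goes from 0.213 at 1 step to 0.120 at 10 steps, and the orange pairs lie lowest throughout.

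Gapped consecutive regions gave a likeness of 0.146 ± 0.048, close to that of members 3 steps apart. Touching members exceeded them in 8 of 8 library pairs, by 0.067 ± 0.021 (0.031 to 0.090). The pairs differed in signal, with a median of 30.0 units for touching and 24.2 for gapped regions, so they were also compared within 4 bins of signal. Touching members gave 0.12, 0.24, 0.34 and 0.44 from the lowest to the highest bin, gapped regions 0.087, 0.18, 0.29 and 0.34, and the same member 0.20, 0.33, 0.46 and 0.62. The order touching above gapped held in each bin, and the highest held only 405 and 230 pairs. With gaps of up to 1000 bp only, the 2231 gapped pairs gave 0.075 ± 0.031, although these regions lay closer together. They were shorter (median 1502 bp against 2214 bp) and weaker (17.6 units).

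The likeness depended on the libraries. Within the 5 library pairs outside the set of 6, touching members gave 0.337 and the same member 0.435. Within the 3 pairs of the set the values were 0.084 and 0.167, and between the sets 0.156 and 0.223. A call in 10 libraries could also be read in the 6 that did not make it. Touching neighbours of members called higher in the 10 were above 0 in the set of 6 in 70.1% of 4729 cases, against 83.5% for the called members themselves and 53.4% for all members. Neighbours of members called lower were below 0 in 67.7% of 4572 cases, against 76.1% and 46.6%. In the opposite reading, neighbours of members called lower in the set of 6 had a median log2 difference of -0.71 in the 10 other libraries, with 87.7% of 350 below 0. The called members themselves had -1.15 there. Neighbours of members called higher had a median of 0.27, with 76.4% of 602 above 0.

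The second comparison took each chain as a whole, with the signal of all its rows summed. Of 4598 chains, 443 were higher in GFP-positive nuclei (9.63%) and 538 lower (11.7%), by limma with adjusted p under 0.05 over all runs of touching rows. Over all 55539 runs tested, 6.56% were higher and 9.46% lower, 16% in all. Runs were also compared within 4 bins of summed signal that divide the chains equally. In bins 2, 3 and 4, chains were called in 20.8%, 21.9% and 25.7% of cases, and shorter runs of the same signal in 11.4%, 15.2% and 19.5%. In the lowest bin the shares were 16.96% and 17.6%. In the other 10 libraries 1500 chains were higher and 1492 lower, where 32.4% of all single regions were called. The set of 6 alone called 325 and 359, where 4.1% of all single regions were called. The share of all runs called was not counted in these 2 fits, so their counts are not read as a result about chains. Leaving out 1 library in turn gave 234 to 480 higher and 383 to 629 lower chains. The higher count moved by over 1.5 times without any Fast library, either sort of Lep24 replicate 2 or Fed GFP-positive replicate 2.

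Some chains were called although none of their members was. Of the 443 higher chains 171 had no called member, and in 62 of these a row of 10000 bp or more was called, which leaves 109 with no called row. Of 536 lower chains with a tested member 145 had no called member, and 57 of these had no called row of any length. In 270 of the 443 (60.9%) and 330 of the 536 (61.6%) every tested member had the sign of the sum. Over all members of higher chains 89.7% lay above 0, and over those of lower chains 88.7% lay below 0, while in chains without a call 56.0% lay above 0. A member is part of its chain's sum, so these shares are a description.

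The 6 higher and 6 lower chains with the smallest p and the same sign in all 8 library pairs give a view of single chains. They were chosen by this same difference, so the lack of overlap between their sorts is a description. The share of all chains without overlap is not given here. On chromosome 6, the 7 rows of chr6:5322199-5372375 summed to 1082 to 1532 units (median 1364) in the 8 GFP-positive libraries and to 755.7 to 824.8 (median 801) in the 8 GFP-negative libraries. The sorts did not overlap. The chain was 1.66-fold higher (log2 0.73 ± 0.07 SE, limma adjusted p = 0.000669), and 4 of its 5 members and both of its rows of 10000 bp or more were called higher. The exception was the end piece of 6324 bp at chr6:5366052-5372375, with a log2 difference of 0.10 ± 0.21.

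On chromosome 3, chr3:101580222-101613809 held 8 members and no longer row. It summed to 743.8 to 899.9 units (median 839.6) in GFP-positive and 463.7 to 608.4 (median 514) in GFP-negative libraries, again without overlap. The sum was 1.60-fold higher (log2 0.68 ± 0.08, limma adjusted p = 0.000755). All 8 pieces lay above 0, from 0.28 to 1.25, and 5 were called. Its second piece, chr3:101582794-101587028, had the smallest p of all higher members: 119.6 to 183.8 units against 56.5 to 87.9 (log2 1.06 ± 0.13, limma adjusted p = 0.00104). The third piece, of 980 bp, stood at 1.25 ± 0.21.

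The other 4 higher chains were chr7:107417325-107493742 (1.39-fold), chr12:75170150-75224924 (1.40-fold), chr3:118124797-118235178 (1.45-fold) and chr17:73566724-73625656 (1.47-fold). Their sorts did not overlap either. In the chromosome 7 chain none of the 3 members passed the test, though all lay above 0 (log2 0.23, 0.54 ± 0.20 and 0.23). Of its 4 longer rows 2 were called, at 0.64 and 0.60, and the others stood at 0.35 and 0.10. In the 13-row chain on chromosome 17, 11 of 12 members lay above 0 and 3 were called.

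Among the 6 lower chains the folds ran from 1.67 to 3.10. The 5 rows of chr8:91548852-91572487 summed to 171.7 to 357.1 units (median 210) in the GFP-positive libraries and to 566.5 to 842.3 (median 672) in the others. It was 3.10-fold lower (log2 -1.63 ± 0.13, limma adjusted p = 0.000583). Of its 3 tested members 2 were called lower, at -1.74 and -0.93, and its long row stood at -1.94. Its second piece, a dense one of 1230 bp, had only -0.27 ± 0.31 and was not called. The dense member chr8:91564814-91570075 ran from 70.7 to 114.9 units in GFP-positive and from 191.2 to 484.1 in GFP-negative libraries.

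On chromosome 3, chr3:32951519-32999205 with 7 rows summed to 433.6 to 642 units (median 470) against 835 to 1224 (median 1083), without overlap (2.08-fold lower, log2 -1.06 ± 0.11, limma adjusted p = 0.000684). Both long rows and 4 of its 5 members were called lower, from -0.52 to -1.14 among the members, and the piece that was not, of 917 bp, had -0.37 ± 0.29. The other 4 lower chains were chr2:29679530-29716439 (1.90-fold), chr4:97435431-97465777 (2.61-fold), chr12:80123556-80156704 (1.67-fold) and chr2:152599848-152659764 (1.78-fold). In the first of these a piece at log2 0.13 touched chr2:29683913-29691039 at -1.67 ± 0.17, a change of level within 2 neighbouring rows.

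**Figure D2:**
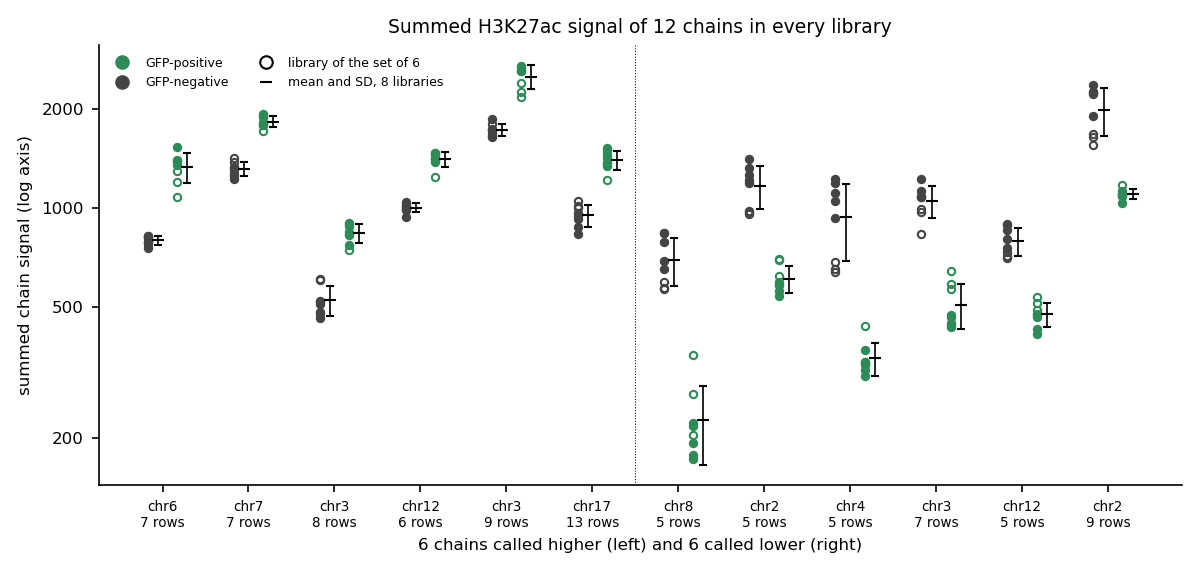
Summed H3K27ac signal (log axis) of the 6 higher and 6 lower chains with the smallest p and the same sign in all 8 library pairs, 1 dot per library, with the mean ± SD of 8 libraries beside each group. Open dots are the set of 6 libraries. No GFP-positive dot overlaps the GFP-negative dots of its chain, and in the lower chains the open dots of the 2 sorts lie closest together. The chains were chosen by this same difference, so the gap between sorts is a description.

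In all 6 lower chains the ratio of GFP-positive to GFP-negative signal lay closer to 1 in the 3 library pairs of the set of 6. For the chromosome 8 chain it was 0.359 to 0.624 there and 0.204 to 0.333 in the 5 other pairs, and for chr4:97435431-97465777 it was 0.519 to 0.637 and 0.278 to 0.346. Among the 6 higher chains the ranges were apart in the chromosome 6 chain (1.39 to 1.57 in the set and 1.66 to 1.86 outside it) and in chr3:118124797-118235178 (1.205 to 1.386 and 1.437 to 1.647). In the remaining higher chains the ranges overlapped, as in chr3:101580222-101613809 (1.223 to 1.729 and 1.625 to 1.799). What makes the set differ was not tested.

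By single members, the 6 higher ones with the smallest p had folds of 1.85 to 2.59, with the largest at chr12:58636544-58643354, the middle piece of 5: 140.8 to 257.2 units against 51.3 to 107.9 (log2 1.37 ± 0.17, limma adjusted p = 0.00109). Both of its neighbours were called higher as well, at 1.33 and 0.90. In contrast, both neighbours of chr6:99946167-99950955 (125.8 to 166.3 units against 64.2 to 93.6, log2 0.89 ± 0.11) had no call, at 0.17 and 0.33. The 6 lower members had folds of 3.17 to 3.93. The largest fold was in a piece of 1881 bp at chr7:31698174-31700054, with 8.6 to 29.8 units against 53.7 to 89.4 (log2 -1.97 ± 0.20, limma adjusted p = 0.000802), and its neighbours stood at -1.16 and -1.96. Of the 12 neighbours of these 6 lower members, 11 were called lower, and of the 12 neighbours of the 6 higher members 7 were called higher.

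The third comparison asked whether a member differed from the rest of its own chain. The log2 ratio of the piece to the summed other rows was fitted with the same model. Among 22486 members, 98 departed upward and 123 downward (0.983%), where 1.13% of all 26504 pieces of chains departed (0.513% upward and 0.615% downward). The median size of the departures was 0.81 log2 units upward and -0.84 downward. Of the 98 upward members 71 had no sort call of their own, while 100 of the 123 downward members were called lower. The piece and the rest of its chain had opposite signs in 66 of the upward (67.3%) and 51 of the downward departures (41.5%). Among the 22265 members without a departure this share was 31.0%. Across all tested members the sort difference of the piece and that of the rest had a Spearman's rho of 0.527, read in the same libraries. The counts leaned on single libraries: without the Lep2 GFP-positive replicate 1 library they were 260 and 310, and without the Fed GFP-positive replicate 2 library 6 and 10. Leaving out any library but Lep24 GFP-negative replicate 1 moved at least 1 of them by over 1.5 times. In the 10 other libraries 1385 and 1338 members departed, and the share of all pieces of chains was not counted in that fit. In the set of 6 limma called none in either direction, with 1452 and 1199 at an unadjusted p under 0.05.

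**Figure D3:**
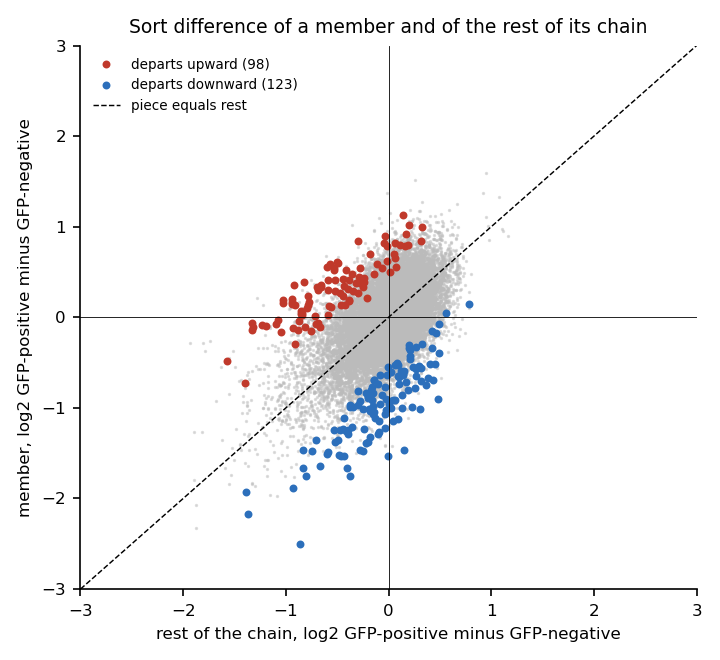
Sort difference in H3K27ac (log2 GFP-positive minus GFP-negative) of each tested member (vertical axis) against that of the summed other rows of its chain (horizontal axis). Grey dots are members without a departure, red and blue dots the 98 upward and 123 downward departures, and the dashed line marks equality. The cloud runs along the line, and the coloured dots lie on both sides of it, many with opposite signs on the 2 axes. Of the grey dots 31.0% also have opposite signs.

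Single departures show how local a difference could be. The member chr5:138197093-138202055, the fourth of 5 rows, had 57 to 96.6 units in GFP-positive and 141.9 to 321 in GFP-negative libraries (log2 -1.47 ± 0.18). The rest of its chain had 1326 ± 67.4 and 1206 ± 154 units (SD, n = 8 libraries each; log2 0.15). The departure was -1.62 ± 0.16 (limma adjusted p = 0.00419), with the same sign in 8 of 8 library pairs. The piece did not overlap between sorts, while the other rows of its chain together had slightly more signal in GFP-positive nuclei.

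The opposite case was chr2:64956278-64959435, the second of 5 rows. It had 40.6 to 64.9 units in GFP-positive and 27.3 to 51.5 in GFP-negative libraries, which overlap (log2 0.39 ± 0.14, not called). The rest of its chain had 111 ± 11.9 units in the GFP-positive libraries and 199 ± 38.5 in the others (log2 -0.82), which gave a departure of 1.21 ± 0.14 (limma adjusted p = 0.00419). Likewise chr12:13297012-13302455 had 106 ± 8.61 and 96.2 ± 11.8 units while its chain had 152 ± 18.5 and 285 ± 27.1. In both cases the piece had overlapping values in the 2 sorts while the rows around it had less signal in GFP-positive nuclei. A member of 1392 bp at the end of its chain, chr15:31501308-31502699, went the other way: 10.2 ± 3.16 against 19.3 ± 2.39 units, in a chain with 218 ± 28.0 against 155 ± 17.96.

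Of the 14 chains with calls in both directions, chr5:100535580-100558809 had 3 higher members and 1 lower. Its 9 rows, all members, summed to 415.9 to 451.8 units (median 423) in GFP-positive and 329.4 to 400.6 (median 352) in GFP-negative libraries, and the sum was called higher (1.2-fold, limma adjusted p = 0.0305). The third piece, chr5:100538499-100541553, was lower, with 26.4 to 38.6 against 38.7 to 66.8 units (log2 -0.67 ± 0.13, limma adjusted p = 0.00649), and it departed from its chain by -1.05 ± 0.12. The next 2 pieces stood at -0.01 and -0.04. The sixth, seventh and eighth were higher, at 0.52, 0.66 and 0.62. The lower piece thus stood alone, and 2 pieces near 0 lay between it and the 3 higher ones. In chr11:119637844-119782002 and chr2:132086602-132138964, with 14 and 12 rows, 1 member was called in each direction. There the lower piece and the higher piece were also not neighbours, and neither sum was called. The chromosome 11 sum was nevertheless higher in GFP-positive nuclei in 8 of 8 library pairs (1.12-fold, limma adjusted p = 0.207), and the chromosome 2 sum in 6 of 8 (1.07-fold, limma adjusted p = 0.583).

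The 3 longest chains had 25 to 29 rows and few calls. In chr7:103901433-104035701 (29 rows) none of 22 tested members was called, and neither was the sum (2261 ± 132 and 2139 ± 267 units, overlapping). Of the 22, 14 lay above 0. In chr8:111210972-111481009 (28 rows) 1 of 20 was called, higher, and in chr4:149738762-150013048 (25 rows) none of 16. In these chains the libraries of the set of 6 had the higher sum of the 2 replicates in Fed, Lep2 and Lep24. In the chromosome 8 chain they summed to 6148 to 6344 units in both sorts, and the other 10 to 5093 to 5567.

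**Figure D4:**
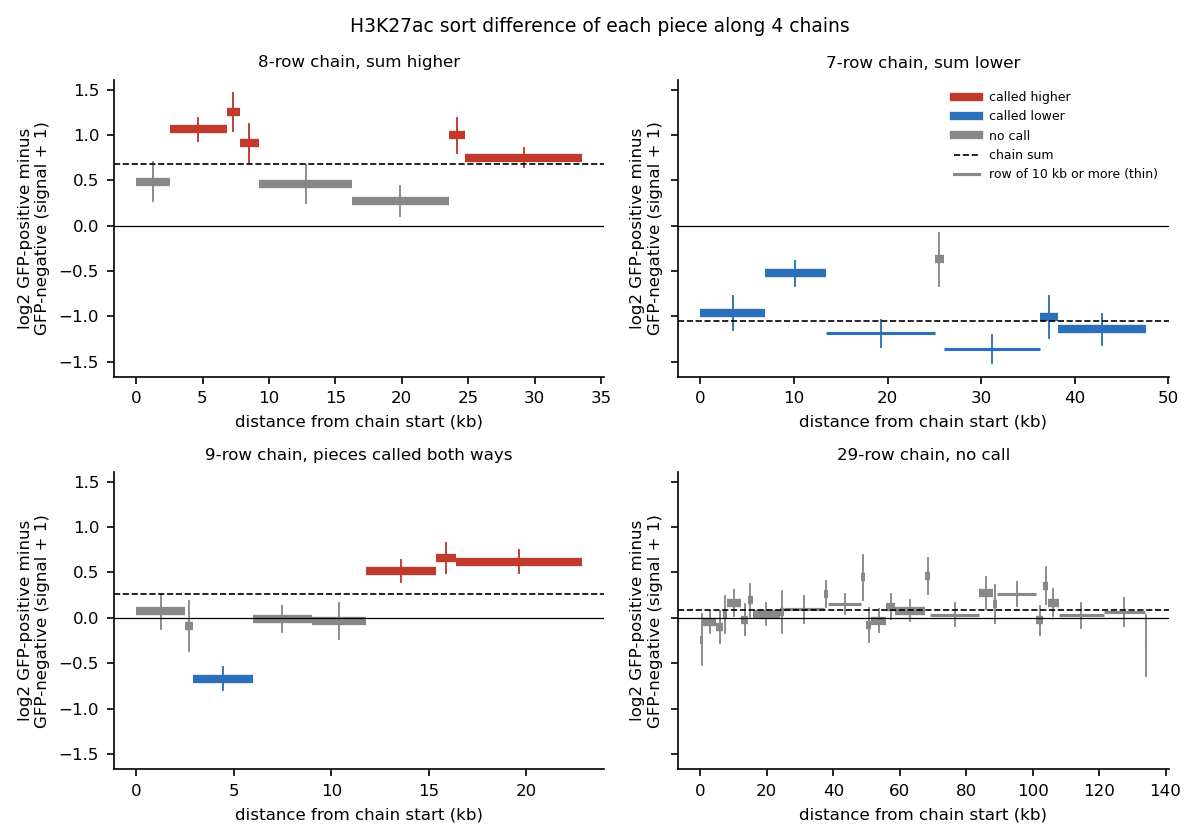
Sort difference in H3K27ac (log2 GFP-positive minus GFP-negative, vertical axis) of every tested piece along 4 chains, against distance from the chain start in kb. Bars span the piece (thick for members, thin for rows of 10 kb or more), vertical lines are ± 1 SE, colour gives the call, and the dashed line is the chain sum. The 8-row chain on chromosome 3 lies above 0 throughout and the 7-row chain below it, the 9-row chain has 1 lower piece and 3 higher ones, and the 29-row chain has no call.

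ATAC-seq came from libraries that neither the rule nor the H3K27ac calls used. Of 43767 ATAC regions tested, 4611 lay in members by at least 1 bp. Among these 285 were higher in GFP-positive nuclei (6.18%) and 210 lower (4.55%), against 4.66% and 5.13% of all ATAC regions, 9.8% in all. Leaving out 1 ATAC library in turn gave 168 to 335 higher and 134 to 271 lower. The counts moved by over 1.5 times, in at least 1 direction, without GFP-negative replicate 2 of any treatment, Fed GFP-positive replicate 2 or Lep24 GFP-negative replicate 1. Open chromatin differed with the place in the chain: 41.5% of even-place members held an ATAC region, and 5.31% of odd-place members. Members that held one were also longer, at a median of 5122 bp against 1771 bp, and had more H3K27ac signal, at a median of 112.55 against 21.9 units. They were called in the sort comparison of H3K27ac in 16.9% of cases (444 higher and 288 lower), and the others in 7.19% (377 higher and 929 lower). The part of length and signal in these shares was not tested.

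The ATAC calls had the direction of the H3K27ac calls. In members called higher, 122 of 512 ATAC regions were higher and 2 lower. In members called lower, 102 of 317 were lower and 5 higher. The neighbours showed the same order at lower shares. In members without a call that touched a higher member, 17 of 155 ATAC regions were higher (10.97%) and 4 lower, and in those that touched a lower member, 26 of 269 were lower (9.67%) and 1 higher. In all members without a call the shares were 4.27% higher and 2.91% lower. Across ATAC regions that lay wholly in a member, the ATAC sort difference had a Spearman's rho of 0.43 with the H3K27ac difference of that member. Against a touching member that held no ATAC region of its own it was 0.27 (6242 cases, where the holding member gave 0.44). These rho values are descriptions across regions that share libraries.

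**Figure D5:**
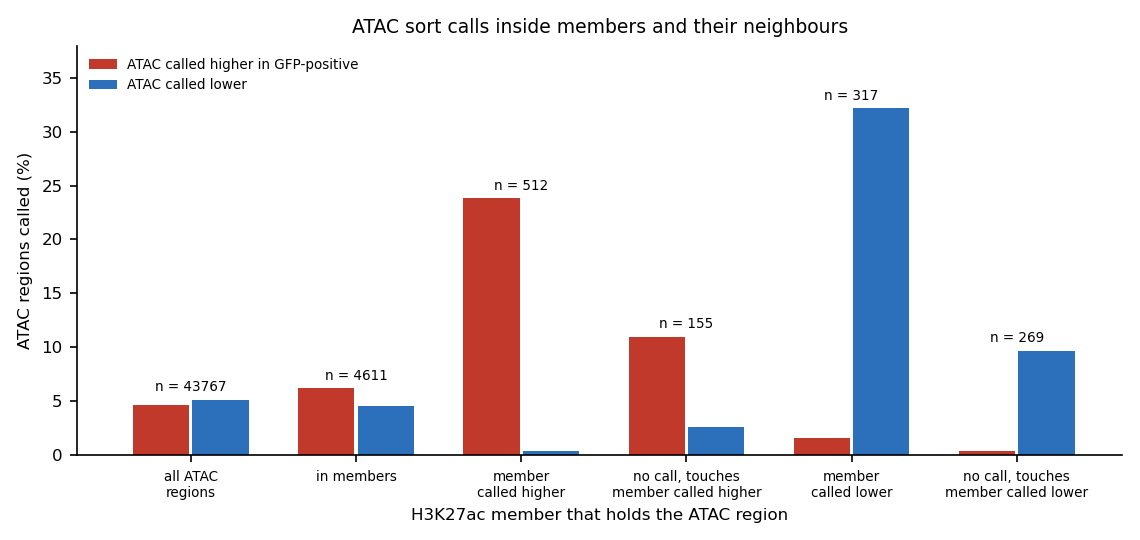
Share of ATAC regions called higher (red) or lower (blue) in GFP-positive nuclei (%, vertical axis), for all ATAC regions, for those in members, and by the H3K27ac call of the member or of the member it touches; n is the number of ATAC regions. The red bar is highest in members called higher (23.8%) and the blue bar in members called lower (32.2%), with lower bars of the same colour order in members that only touch them.

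In the 12 chains named above, every ATAC call had the direction of its chain. In the 6 higher chains 8 of 32 ATAC regions were higher, among them 2 of 5 in chr3:101580222-101613809 and 2 of 7 in the chromosome 6 chain. In the 6 lower chains 9 of 17 ATAC regions were lower. The chain chr5:100535580-100558809 with both directions held 1 ATAC region, which was higher (log2 0.73).

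The fourth comparison asked whether feeding, fasting and leptin changed the members. By limma no member was called for Fast against Fed, Lep2 against Fast or Lep24 against Fast in either sort, nor for the difference of any of these changes between sorts, and 0% of all regions were called in each. The 3 comparisons are not independent, since the later 2 share the Fast libraries. At an unadjusted p under 0.05 there were 426 to 694 members in GFP-positive nuclei and 1017 to 1373 in GFP-negative nuclei (1.89% to 6.11% of members, with 1.91% to 6.05% of all regions). The median half-width of the 95% interval of a member was 0.84 log2 units, before any adjustment over regions. A call needed an adjusted p under 0.05, so changes above that size could also go undetected with 2 libraries a group. Without the set of 6, Fed, Lep2 and Lep24 each had 1 library per sort. The spread then came from the Fast groups alone (2 residual degrees of freedom, moderated over regions by limma), and the lone libraries are assumed to vary like them. Under that assumption some members were called, most of them for Lep24 against Fast in GFP-negative nuclei. The share of all regions called in those fits was not counted, and these calls are not read as a result about the members.

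Touching members were also compared by sign, with 2 libraries a group on each side in every case. Within single treatments, the sort difference had the same sign in 57.4% of touching pairs in Lep2, 60.4% in Fed, 61.1% in Lep24 and 66.3% in Fast. For the 6 treatment changes the share was 48.7% to 52.9%, and the gap between these shares was not tested. Within Fast, 25 members were called lower in GFP-positive nuclei and none higher, where 0.103% of all regions were called. Within Fed, Lep2 and Lep24 limma called no member, with 1555 to 1781 at an unadjusted p under 0.05. Fast was also the only treatment without a library of the set of 6. Fasting and the library set therefore cannot be told apart in these shares and calls. Over all treatments the share of touching pairs with the same sign was 68.7%, against 63.2% of gapped pairs.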

How the data were processed

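H3K27ac and ATAC values are normalized signal per region and library, as deposited by the authors; per the file headers they are normalized counts, and the sources used here do not say how they were normalized. Low values step unequally, so whole reads were not recovered, depth is unknown and no count model was used. Build mm9 comes from the submitters' processing notes, which list DESeq2 1.16.1, HTSeq 0.6.0, MACS2, Bowtie2 2.2.6, Bowtie 1.2, STAR 2.5.2b and CASAVA 1.8 with no step for any of them. How a fragment across 2 touching rows was counted is not given. The deposited fold changes and stabilized values were not used, and input samples (16 ChIP, 4 ATAC) and 23 RNA samples were not used here.

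Members and lists were chosen with earlier results of these data known. Regions in the lowest 10% of mean signal were left out, and log2(signal + 1), which understates changes of low regions, was fitted with limma 3.58.1 (R 4.3.3), with 8 group means, 8 residual degrees of freedom and an intensity-dependent prior. Tests were two-sided with Benjamini-Hochberg adjustment over all features fitted. Chain sums and log2 ratios of a piece to the rest of its chain were fitted alike. For likeness, a sign-flip test over library pairs had been planned and was not used, since each value mixes all pairs. Named chains and pieces had the smallest p with 1 sign in all 8 library pairs, beside the 3 longest chains, 3 chains with calls both ways and the 5 strongest departures each way by p. Coordinates count from 1. No reference of build mm9 was used, so no gene name or sequence is given. Fits were tested on simulated data. Alternatives were quantile normalization, no filter, pseudocounts 0.1 and 5, blocks, adjusted p 0.01, each library left out, the set of 6 as a term or apart, only the groups compared, chains of 10 or more rows and gaps up to 1000 bp. Added after seeing the data were chain sums of members alone, removal of the trend with signal, and terms for treatment and sort in place of group means, the form also used for the set of 6 and the other 10 libraries apart. Plots used matplotlib 3.10.9.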

Additional observations from a re-analysis of the deposited data

Results flagged for a closer look

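Sums of the 18 named chains and values of the named pieces were searched for a library far from the other 7 of its sort, 90 series in all. In 1 of them the lowest library stood apart. The chain chr12:75170150-75224924 summed to 1246.1 units in the Lep2 GFP-positive replicate 1 library, while the other 7 GFP-positive libraries had 1377.4 to 1473.3. The gap was 0.578 of the whole range, above Dixon's critical value for 8 values, which chance passes in about 1 in 20 series. That library belongs to the set of 6, and it lay above every GFP-negative library of the chain (942 to 1046).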

How the results depend on the processing

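Quantile normalization, no filter, pseudocounts of 0.1 and 5, chain sums of members alone and removal of the signal trend kept every count within 1.5 times and every likeness within 1 SD, except that a pseudocount of 5 gave 157 upward departures and one of 0.1 called 1 member for Fast against Fed in GFP-negative nuclei.
In the order members higher and lower, chains higher and lower, departures upward and downward, the counts were 2517, 2568, 1231, 1154, 1291 and 1142 with the library pair as a block (ATAC lower 334), 156, 443, 139, 284, 4 and 9 at an adjusted p of 0.01 (ATAC 89 higher and 82 lower), and 2694, 2717, 1271, 1179, 1377 and 1240 with the set of 6 as a term.
With the other 10 libraries alone they were 3202, 3308, 1500, 1492, 1385 and 1338, likeness was 0.337 and its excess over gapped regions 0.105, and treatment calls, which rest on 1 library per sort of Fed, Lep2 and Lep24 with the spread taken from Fast alone, were 142 (Lep24 against Fast, GFP-negative), 11 (Fast against Fed, GFP-negative), 1 (Lep2 against Fast, GFP-positive) and 1 (Lep24 against Fast, GFP-positive).
With treatment and sort as terms in all 16 libraries, as in the fits of each set, departures were 267 upward and 321 downward, and members and chains stayed within 1.5 times.
With the set of 6 alone, members were 375 and 269, limma found 0 departures upward and 0 downward (1452 and 1199 at an unadjusted p under 0.05), and likeness was 0.0843 with an excess of 0.0249; chain counts were 325 and 359.
Chains of 10 or more rows, which are fewer, held 120 and 148 called members, 33 and 41 called chains and 5 and 12 departures. Gaps up to 1000 bp raised the excess of likeness to 0.138. Where no construction shows it, the cause was not tested.
The replicate numbers showed no pairing of the sorts in Fast (r of the deviations 0.00967), and r was 0.367 to 0.495 in the other treatments. In those, replicate 1 of both sorts belongs to the set of 6. Pairing by number and the library set therefore cannot be told apart there. With the replicate number as a block the counts were 1565, 1865, 799, 821, 505 and 508, and ATAC 377 higher and 320 lower. Since the 6 libraries are all replicate 1, the block also holds most of their difference.
Leaving out 1 library in turn, where the lone library left in a group is assumed to vary like the other groups, gave 309 to 1077 higher and 690 to 1555 lower members, 234 to 480 higher and 383 to 629 lower chains, 6 to 260 upward and 10 to 310 downward departures, 168 to 335 higher and 134 to 271 lower ATAC regions, likeness of 0.189 to 0.254 and an excess of 0.0598 to 0.0796.
Higher members moved by over 1.5 times without Fed GFP-positive replicate 1 or 2, any Fast library, Lep2 GFP-positive replicate 2, or either sort of Lep24 replicate 2. Lower members did so without Fed GFP-positive replicate 2, any Fast library or Lep24 GFP-positive replicate 2. Higher chains did so without any Fast library, either sort of Lep24 replicate 2 or Fed GFP-positive replicate 2. Departures did so, in at least 1 direction, without any library but Lep24 GFP-negative replicate 1. ATAC counts did so without GFP-negative replicate 2 of any treatment, Fed GFP-positive replicate 2 or Lep24 GFP-negative replicate 1.
Treatment calls then were 0 to 4 (Fast against Fed, GFP-negative), 0 to 3 (Lep24 against Fast, GFP-negative), 0 for Lep2 against Fast in GFP-negative nuclei, and 0 to 1 in the 3 GFP-positive comparisons, in which the 1 call came without the Fast GFP-positive replicate 1 library. Depth is unknown, and 2 libraries a group limit the treatment comparisons most.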

Other observations

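A member at the end of its chain, chr15:102197831-102199248, had low values in 2 groups. It had 5.9 and 6.6 units in the Fed GFP-negative libraries and 6.1 and 8.2 in the Fast GFP-positive libraries, while the other 12 libraries had 11.6 to 24.8. Its sort difference over all treatments was -0.08 ± 0.18 (limma adjusted p = 0.834), and the rest of its chain had 164 ± 60.6 units in the GFP-positive libraries and 369 ± 41.0 in the others. The member was named for its departure from that chain, and its values by treatment were noticed afterwards and not tested by themselves.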
